A study of Mus musculus with 8 samples.

Results

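The genes described here encode the machinery of oxidative phosphorylation: complexes I to V of the inner mitochondrial membrane, factors that assemble complex I, and the 13 protein genes of the mitochondrial genome. They were chosen by name, as the protein-coding genes whose GRCm38 symbol begins with Nduf, Uqcr, Cox4 to Cox8, Atp5 or mt-, together with Sdha, Sdhb, Sdhc, Sdhd and Cyc1. Of 49315 gene identifiers in the count table, 107 met this rule, 94 encoded in the nucleus and 13 in mitochondria. A further annotated gene model named Atp5o also matched the names but has no row in the count table, so it could not be analysed. The libraries were made from polyA RNA of biopsies described as whole esophagus, of C57BL/6J males, 8 weeks old. The EoE33 group held 4 samples from mice with a transgene that overexpresses IL-33 in the esophagus, and the control group held 4 samples from wild type littermates. EoE33 is used in the series as a model of eosinophilic esophagitis, a chronic inflammation rich in eosinophils. What promoter drives the transgene, and in how many founder lines, is not given in the sources used. The labels number the samples within each group and do not say that each came from its own mouse. The p-values therefore measure the spread between these samples, which may not be that between mice.

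Complexes I and II pass electrons from NADH and succinate to ubiquinone, complex III passes them on to cytochrome c, and complex IV, cytochrome c oxidase, hands them to oxygen. Protons pumped on the way drive complex V, the ATP synthase. Most subunits come from a single nuclear gene used in every tissue, but several small subunits of complex IV have isoforms made mainly in heart and skeletal muscle. The muscle coat of the mouse esophagus is largely striated, so a whole esophagus holds RNA of skeletal-type muscle fibres, squamous epithelium and other cells together. In such bulk samples, fewer cells of a type and less RNA per cell cannot be told apart.

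The 8 libraries held 17.73 to 24.07 units of 1e6 counts, so that 3 counts corresponded to between 0.127 and 0.175 CPM (counts per 1e6 counts, scaled by TMM factors). Il33 was 99.7 to 165 CPM in the wild type libraries and 354 to 393 CPM in the EoE33 libraries, as the labels have it. The 15 skeletal muscle markers were detected in every library, and their summed level was 37929 to 41216 CPM in wild type and 9604 to 12874 CPM in EoE33. Some wild type libraries carried transcripts of neighbouring tissue. In wild type replicate 1 the liver transcript Alb stood at 91.2 CPM, against 0.117 to 6.89 CPM in the other 7 libraries. In wild type replicate 3 the airway transcript Scgb1a1 was 350 CPM and the heart transcript Myh6 was 145 CPM, against at most 5.89 and 0.56 CPM elsewhere. The brown fat transcript Ucp1 was highest, at 31.0 CPM, in EoE33 replicate 4.

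Oxidative phosphorylation genes were mostly lower in EoE33, by modest amounts. Of the 107 genes, 105 passed the filter on low counts, 60 were lower in EoE33, 5 were higher and 40 did not pass the threshold (edgeR's quasi-likelihood test, Benjamini-Hochberg adjusted p under 0.05 over 16760 genes). Among all tested genes, 32.1% were called lower, 31.3% higher and 63.4% in either direction. Calls in either direction took 61.9% of the members, near that background, whereas calls of a lower level took 57.1% and calls of a higher level 4.76%. The median log2 fold change of the members was -0.28, beside -0.01 over all tested genes. Of the 65 called members, 61 changed by less than 2-fold, and the 4 that changed by 2-fold or more were all lower. All 4 are tissue-restricted isoforms of complex IV. At least 2-fold lower calls took 14.9% of all tested genes. In 62 members all EoE33 libraries lay below all wild type libraries, and in 4 members all lay above, where 29.9% and 29.6% of all tested genes did so. Without wild type replicates 1 and 3 the members called lower numbered 47 and those called higher 3. Calls also fell over all genes in that setting, to 4495 lower and 4332 higher of 17354 tested, from 5383 and 5238 of 16760.

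**Figure D1:**
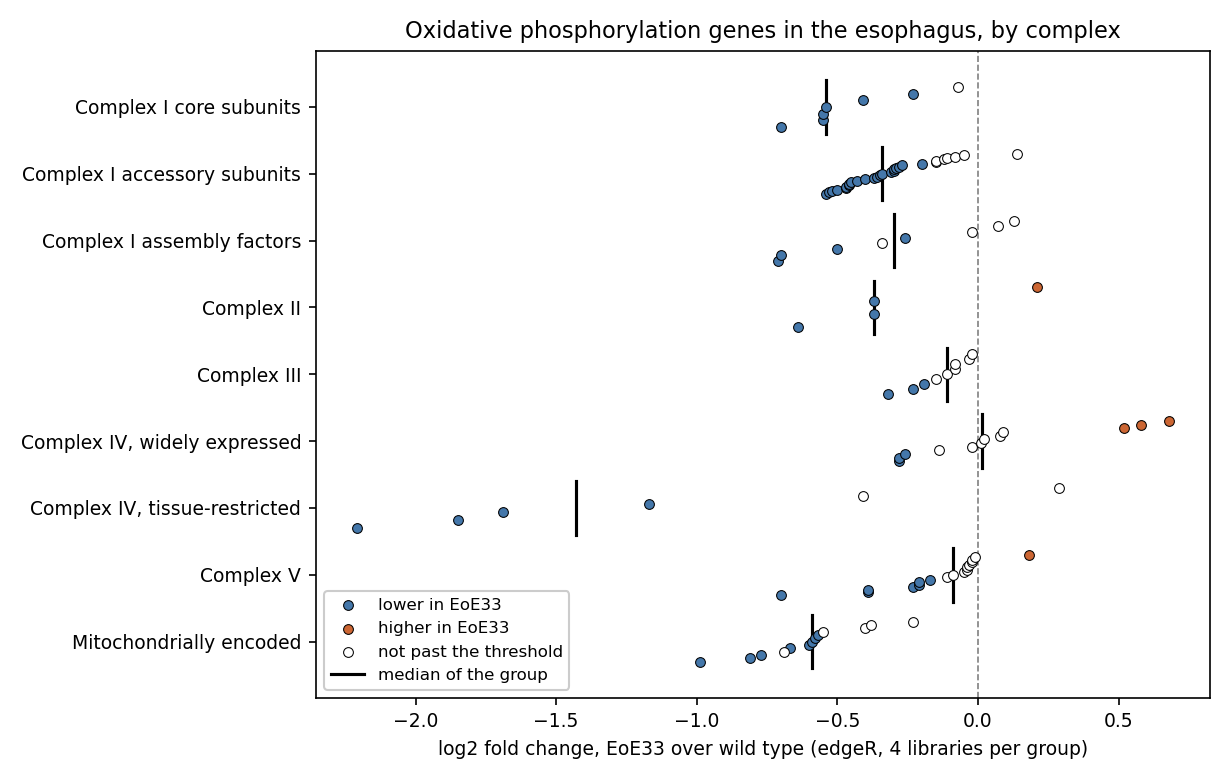
Each point is 1 of the 105 tested genes, placed by its log2 fold change in EoE33 over wild type (x axis) within its complex (rows), with 4 libraries per group. Black bars mark the median of each row: -0.54 for the complex I core, -0.59 for the mitochondrially encoded genes, -1.43 for the tissue-restricted isoforms of complex IV and 0.02 for its widely expressed subunits.

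The largest differences lay in muscle isoforms of complex IV. Cox6a2, Cox7a1 and Cox8b, which stand in for Cox6a1, Cox7a2 and Cox8a in heart and skeletal muscle, were lower in EoE33, while 2 of their 3 widely expressed counterparts were higher. The stretches just upstream of 4 of these genes are shown because the isoforms of 1 subunit moved apart while sharing a function. Only Cox8b and Cox8a are both isoforms of the same subunit among them, and no window of Cox6a2 is shown. They are the 250 bases before the annotated start in RefSeq (GRCm38.p6), read 5′ to 3′ on the strand of the gene. Capitals mark any of 6 motifs on either strand: the NRF-1 site GCATGCGC, the NRF-2 (ETS) site CCGGAAG, the YY1 site AAGATGG, the estrogen-related receptor site AAGGTCA, the muscle E-box CAGCTG and MEF2. The windows lie at chr7:30183921-30184170 on the plus strand for Cox7a1, and on the minus strand at chr7:140900447-140900696 for Cox8b, chr5:115348959-115349208 for Cox6a1 and chr19:7217617-7217866 for Cox8a.
Cox7a1: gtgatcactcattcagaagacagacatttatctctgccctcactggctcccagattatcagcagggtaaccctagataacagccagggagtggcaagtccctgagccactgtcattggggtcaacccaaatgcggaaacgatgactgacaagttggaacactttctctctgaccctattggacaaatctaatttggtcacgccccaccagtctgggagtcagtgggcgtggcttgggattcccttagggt
Cox8b: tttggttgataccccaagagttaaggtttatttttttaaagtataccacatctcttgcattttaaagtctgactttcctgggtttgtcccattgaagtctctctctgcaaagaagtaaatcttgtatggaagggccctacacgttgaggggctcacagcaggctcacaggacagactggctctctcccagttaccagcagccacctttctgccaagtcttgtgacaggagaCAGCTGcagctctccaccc
Cox6a1: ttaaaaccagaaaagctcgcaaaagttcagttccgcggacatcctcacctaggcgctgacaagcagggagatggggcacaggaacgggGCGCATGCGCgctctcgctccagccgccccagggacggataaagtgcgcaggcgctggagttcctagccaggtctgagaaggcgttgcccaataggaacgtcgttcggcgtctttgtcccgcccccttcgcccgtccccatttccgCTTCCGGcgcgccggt
Cox8a: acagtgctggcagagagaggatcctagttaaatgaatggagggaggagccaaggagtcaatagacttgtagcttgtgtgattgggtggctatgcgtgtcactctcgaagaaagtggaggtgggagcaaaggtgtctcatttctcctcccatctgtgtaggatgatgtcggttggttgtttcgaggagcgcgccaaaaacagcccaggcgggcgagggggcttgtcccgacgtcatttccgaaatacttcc

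Cox6a1 held the NRF-1 letters on both strands, as an overlapping palindrome, and the ETS letters once on the opposite strand. Cox8b held 1 muscle E-box, which is a palindrome too, and Cox7a1 and Cox8a held none of the 6 motifs in this window. The windows of Ndufa4 and Cox7a2, not printed, held none either. RefSeq windows were matched for 76 of the 107 genes, 81 windows in all. The NRF-1 letters were in 11.1% of these windows and in 2.3% of 32841 mouse promoter windows of the same length. The ETS letters, the site of NRF-2 (GABP), were in 17.3% of the members' windows and 6.9% of all windows. Nuclear respiratory factors are known regulators of respiratory chain genes. The estrogen-related receptor letters were in 6.2% against 4.1%, the YY1 letters in 1.2% against 4.5%, the E-box in 7.4% against 13%, and the MEF2 motif in 0 windows against 2.9%. Letters downstream of the annotated start were not searched, so these shares do not cover sites there. A match is a description of the letters and not of binding.

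Cox6a2 (ENSMUSG00000030785, chr7:128205435-128206387, minus strand, GRCm38) stood at 108, 109.6, 97.0 and 111 CPM in the 4 wild type libraries and at 27.9, 27.8, 26.2 and 36.2 CPM in the 4 EoE33 libraries. The groups were far apart, and EoE33 replicate 4 was above the other 3 of its group. The level was 3.61-fold lower in EoE33, or -1.85 ± 0.11 as log2 fold change ± standard error (SE) (adjusted p in edgeR = 1.56e-06). Cox7a1 (ENSMUSG00000074218, chr7:30184144-30186078, plus strand) stood at 45.9, 42.1, 37.6 and 39.9 CPM in wild type and at 11.3, 4.91, 8.01 and 11.5 CPM in EoE33. No value of one group reached the other, and EoE33 replicate 2 was the lowest of all libraries. The log2 fold change of -2.21, with an SE of 0.23, was the largest among the members (adjusted p in edgeR = 6.19e-05). Cox8b (ENSMUSG00000025488, chr7:140898945-140900446, minus strand) stood at 69.6, 67.6, 59.2 and 60.2 CPM in wild type and at 21.4, 14.6, 19.0 and 24.5 CPM in EoE33. Here too EoE33 replicate 2 was lowest, and the groups did not overlap. The level was 3.23-fold lower in EoE33, a log2 fold change of -1.69 with an SE of 0.14 (adjusted p in edgeR = 1.17e-05).

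The counterpart Cox6a1 (chr5:115345642-115348981) stood at 125, 109, 120.2 and 107 CPM in wild type and at 173, 157, 159 and 172 CPM in EoE33, with all EoE33 libraries above all wild type libraries. It rose 1.43-fold (log2 fold change 0.52 with an SE of 0.07 and adjusted p in edgeR = 0.000214). Cox8a (chr19:7215153-7217616) stood at 102, 85.7, 96.0 and 90.3 CPM in wild type and at 143, 147, 132 and 137 CPM in EoE33. Its 1.49-fold rise again left no overlap between groups (log2 fold change 0.58 with an SE of 0.07 and adjusted p in edgeR = 9.81e-05). Cox7a2 (chr9:79755361-79759878) did not pass the threshold. Its levels of 75.1, 71.3, 80.2 and 68.1 CPM in wild type and 71.1, 81.3, 71.2 and 72.8 CPM in EoE33 overlapped, with a log2 fold change of 0.01 and a 95% interval from -0.16 to 0.17 (adjusted p in edgeR = 0.926).

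Set against each other inside each library, where library scaling drops out, the muscle isoform was lower relative to its counterpart in all 3 pairs. The log2 ratio of Cox6a2 to Cox6a1 averaged -0.11 (SD 0.18) in wild type against -2.49 (SD 0.17) in EoE33, with n = 4 per group, a difference of -2.38. For Cox7a1 to Cox7a2 the difference was -2.28, and for Cox8b to Cox8a it was -2.29. Each pair gave a two-sided exact permutation p of 0.0286, the smallest that 4 against 4 libraries allow, and 0.0644 after Benjamini-Hochberg adjustment over 9 ratios. In each of these pairs all 4 EoE33 ratios lay below all 4 wild type ratios.

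Per length of exon, which allows genes to be compared, the muscle isoform made up 48.9% ± 3.03 of the Cox6a transcripts in wild type but 15.5% ± 1.63 in EoE33 (mean ± SD of 4 libraries per group, here and in the next sentences). Cox7a1 made up 49.8% ± 3.03 of the Cox7a1 and Cox7a2 level in wild type and 17.5% ± 5.8 in EoE33. The share of Cox8b in the Cox8a and Cox8b level was 54.1% ± 2.55 in wild type and 19.6% ± 3.7 in EoE33. By this measure the muscle isoform was about as abundant as its counterpart in wild type esophagus, and in EoE33 it was the lesser part of each pair. The summed level of both isoforms moved less: from 321 ± 11.3 to 279 ± 16.2 CPM per kb for Cox6a, from 329 ± 20 to 280.4 ± 11.3 CPM per kb for Cox8, and from 155 ± 7.66 to 95.2 ± 3.48 CPM per kb for Cox7a.

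**Figure D2:**
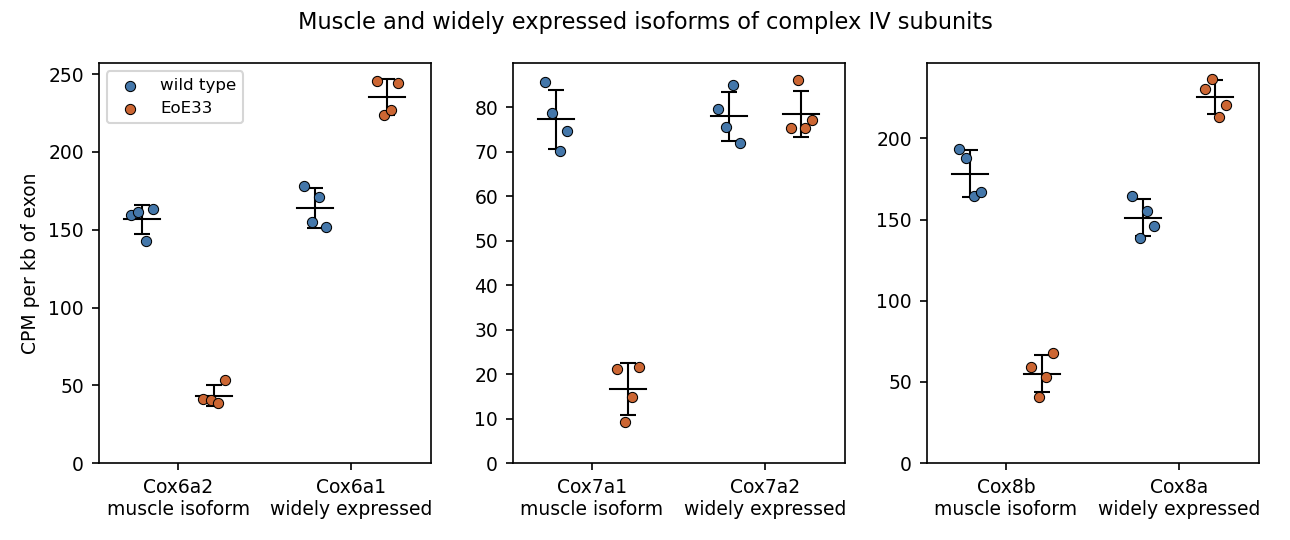
Levels in CPM per kb of exon (y axis, from 0) of the muscle isoform and the widely expressed isoform of 3 complex IV subunits, each point 1 library, with mean and SD of 4 libraries per group. The muscle isoforms of EoE33 sit well under those of wild type in each panel, while Cox6a1 and Cox8a are higher in EoE33 and Cox7a2 overlaps between groups.

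The fall of these isoforms was set beside that of the 15 skeletal muscle markers, which include the actin Acta1, the creatine kinase Ckm and myoglobin, Mb. Their mean log2 level was lower in EoE33 by a difference of -2.25, and all 15 fell, with a median log2 fold change of -2.12. The log2 ratio of Cox7a1 to the marker mean differed by -0.02 between groups (two-sided exact permutation p = 0.914). For Cox6a2 the ratio was higher in EoE33 by 0.40, with overlapping groups (exact permutation p = 0.0571, adjusted 0.0857). For Cox8b it was higher by 0.54, with no overlap (exact permutation p = 0.0286, adjusted 0.0644). The log2 fold changes of all 3 isoforms lay within those of the single markers, from -3.97 for Myh4 (SE 0.88) to -1.58 for Acta1. The part of muscle content in the change of any member was not tested beyond these ratios.

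Ndufa4 showed the largest rise of any member. The protein was first assigned to complex I and is now placed in complex IV. The gene (ENSMUSG00000029632, chr6:11900292-11907497) stood at 231, 227, 244 and 188 CPM in wild type and at 341, 377, 396 and 307 CPM in EoE33. All EoE33 libraries were above all wild type libraries, a 1.6-fold rise (log2 fold change 0.68 with an SE of 0.11 and adjusted p in edgeR = 0.000474). Its paralog Ndufa4l2, a hypoxia-inducible gene, stood at 73.8 to 105 CPM in wild type and 74.2 to 145 CPM in EoE33, and its log2 fold change of 0.29 did not pass the threshold (adjusted p in edgeR = 0.228). The ratio of Ndufa4l2 to Ndufa4 was lower in EoE33 by a log2 difference of -0.42, with overlapping groups (exact permutation p = 0.0571, adjusted 0.0857).

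The remaining isoforms of complex IV were scarce. Cox4i2, the isoform known from lung, was at 0.676 to 1.75 CPM in wild type and 0.299 to 0.69 CPM in EoE33, ranges that touch. It was called lower (log2 fold change -1.17 with an SE of 0.38 and adjusted p in edgeR = 0.0236), on 106 counts in all wild type libraries and 41 in all EoE33 libraries, and the call was lost without wild type replicate 2 or 4 or EoE33 replicate 1 or 4, and with the block on replicate number. Its ratio to Cox4i1 differed by -0.90 (exact permutation p = 0.0857, adjusted 0.110). Cox6b2, a testis isoform, was at 1.36 to 2.91 CPM in wild type and 1.17 to 2.14 CPM in EoE33 and did not pass the threshold, and its ratio to Cox6b1 gave an exact permutation p of 0.257 (adjusted 0.289). Cox7b2 and Cox8c, also known from testis, had 0 counts in all 8 libraries.

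Among the 12 widely expressed genes of complex IV, 3 were higher, 3 lower and 6 not called, with a median log2 fold change of 0.02. That is 25% in each direction, under the 31.3% and 32.1% of all tested genes. The higher genes were Ndufa4, Cox8a and Cox6a1. Those called lower were Cox5a, Cox7c and Cox6c, with log2 fold changes of -0.28, -0.28 and -0.26, and each of them separated the groups. The calls of Cox7c and Cox6c were lost without wild type replicates 1 and 3, the libraries with liver, airway and heart transcripts. Leaving out these libraries also lowered the number of calls over all genes. Cox4i1, the most abundant per length in wild type at 185 CPM per kb, had a log2 fold change of -0.14 with a 95% interval from -0.29 to 0.02 (adjusted p in edgeR = 0.102). Cox6b1, next in that order at 184 CPM per kb and not distinct from it, had one of 0.09, with an interval from -0.05 to 0.22.

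Complex I held the largest number of genes called lower. Of its 36 nuclear subunits, 28 were called lower, none higher and 8 were not called, with a median log2 fold change of -0.35. The share called lower was 77.8%, where 32.1% of all tested genes were called lower and 31.3% higher. Of the 7 core subunits, which include the carriers of the flavin and the iron-sulfur clusters, 6 were called lower (85.7%). In all 7, every EoE33 library lay below every wild type library, as in 29.9% of all tested genes. Ndufs7 (ENSMUSG00000020153, chr10:80249121-80256794), which holds the last iron-sulfur cluster before ubiquinone, stood at 86.7, 83.2, 85.1 and 82.4 CPM in wild type and at 56.1, 44.5, 53.2 and 53.5 CPM in EoE33. The groups were well apart and EoE33 replicate 2 was lowest. It was 1.63-fold lower in EoE33 (log2 fold change -0.70 with an SE of 0.08 and adjusted p in edgeR = 4.95e-05).

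Ndufs1, the largest core subunit, stood at 171, 163, 155 and 163 CPM in wild type and 119, 100.1, 112 and 114 CPM in EoE33. Ndufs3, another core subunit, stood at 84.7, 78.5, 78.3 and 79.5 CPM in wild type and 57.1, 48.6, 54.7 and 58.1 CPM in EoE33. Both had a log2 fold change of -0.55 with an SE of 0.07 and no overlap between groups (adjusted p in edgeR = 0.000115 and 0.00012). Ndufv1, which binds NADH, and its partner Ndufv2 had log2 fold changes of -0.41 and -0.54. The exception in the core was Ndufs8, at 55.9 to 60.3 CPM in wild type and 52.9 to 55.9 CPM in EoE33, with a log2 fold change of -0.07 (adjusted p in edgeR = 0.285). Its groups did not overlap, but the gap between them was small.

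Of 29 accessory subunits, which surround the core, 22 were called lower (75.9%, beside 32.1% of all tested genes) and none higher. Their log2 fold changes ran from -0.54 to 0.14 with a median of -0.34. Ndufb9, in the membrane arm, was the most abundant complex I gene per length in wild type, at 117 CPM per kb. It stood at 123, 122, 118 and 119 CPM in wild type and 87.5, 81.8, 82.3 and 84.9 CPM in EoE33, 2 tight groups without overlap (log2 fold change -0.52 with an SE of 0.05 and adjusted p in edgeR = 2.83e-05). Ndufa13 had the lowest log2 fold change of the accessory genes, -0.54, though 20.5% of its 150-base windows were shared with the gene Tssk6. The 7 accessory genes without a call were Ndufa1, Ndufa3, Ndufa8, Ndufb5, Ndufb11, Ndufc2 and Ndufv3, and Ndufb11 alone had a log2 fold change above 0, at 0.14 (adjusted p in edgeR = 0.127).

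Complex I assembly factors were less abundant, with a median wild type level of 5.76 CPM per kb beside 49.1 for the core and 45.8 for the accessory subunits. Of the 8 tested, 4 were lower (50%, beside 32.1% of all tested genes) and 4 not called. Ndufaf5, which hydroxylates an arginine of Ndufs7, stood at 12.8, 11.5, 12.2 and 12.0 CPM in wild type and 7.01, 6.66, 8.40 and 7.53 CPM in EoE33 (log2 fold change -0.71 with an SE of 0.10 and adjusted p in edgeR = 0.000267). Ndufaf1, of the complex that builds the membrane arm, stood at 17.8, 16.7, 17.5 and 18.6 CPM in wild type and 12.6, 9.99, 10.1 and 10.7 CPM in EoE33 (log2 fold change -0.70 with an SE of 0.10 and adjusted p in edgeR = 0.000195). Neither gene overlapped between groups. Ndufaf4 had a log2 fold change of -0.50 without overlap (adjusted p in edgeR = 0.00151), and the fourth call, Ndufaf7 at -0.26, had overlapping groups and was lost without several single libraries. Ndufaf8, a partner of Ndufaf5, had the highest wild type mean of the factors per length, 11.8 CPM per kb, not distinct from the 11.7 of Ndufaf1. It had a log2 fold change of -0.02 with a 95% interval from -0.31 to 0.28.

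Complex II, succinate dehydrogenase, works in both the respiratory chain and the tricarboxylic acid cycle. Sdha (ENSMUSG00000021577, chr13:74322254-74350280), its flavoprotein, stood at 390.1, 351, 328 and 367 CPM in wild type and 246, 200.2, 229.8 and 244 CPM in EoE33. The groups did not overlap and the level was 1.56-fold lower in EoE33 (log2 fold change -0.64 with an SE of 0.09 and adjusted p in edgeR = 0.000192). Sdhb, the iron-sulfur subunit, stood at 121, 118, 123 and 117 CPM in wild type and at 92.7, 92.35, 91.9 and 93.4 CPM in EoE33, with a log2 fold change of -0.37 (adjusted p in edgeR = 0.000167). Sdhc, a membrane anchor, also had one of -0.37, from 120.2 to 147 CPM in wild type and 103 to 109.7 CPM in EoE33 (adjusted p in edgeR = 0.00144).

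The other anchor, Sdhd, went the opposite way by a small amount. It stood at 87.6, 82.2, 80.4 and 79.9 CPM in wild type and at 95.2, 108, 90.5 and 87.0 CPM in EoE33, and EoE33 replicate 4 lay within the wild type range. Its call as higher (log2 fold change 0.21 with an SE of 0.08 and adjusted p in edgeR = 0.0395) was lost when any of wild type replicates 2, 3 or 4 or EoE33 replicates 1 or 2 was left out, and also with the block, with library size only and without wild type replicates 1 and 3.

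Complex III, the cytochrome bc1 complex, had small differences. Of its 9 nuclear genes, 3 were lower and 6 not called, a share of 33.3% that is close to the 32.1% of all tested genes, with a median log2 fold change of -0.11. All 9 log2 fold changes were below 0, and in 6 genes (66.7%, beside 29.9% of all tested genes) all EoE33 libraries lay below all wild type libraries. Uqcrfs1 (ENSMUSG00000038462, chr13:30540308-30545362), the Rieske iron-sulfur protein, stood at 140.4, 145, 145 and 139 CPM in wild type and 119, 108, 107 and 121 CPM in EoE33, without overlap (log2 fold change -0.32 with an SE of 0.06 and adjusted p in edgeR = 0.00156). Of the small subunits, Uqcrb had a log2 fold change of -0.23 and Uqcr11 one of -0.19 (adjusted p in edgeR = 0.00486 and 0.0134). Uqcr10 had one of -0.15 and missed the threshold (adjusted p in edgeR = 0.0525), although its groups did not overlap. Per length of exon it was the highest of the complex in wild type at 124 CPM per kb, not distinct from Uqcrb at 120.5. Cytochrome c1, Cyc1, and the core proteins Uqcrc1 and Uqcrc2 had log2 fold changes of -0.08, -0.02 and -0.08 and were not called, though Cyc1 and Uqcrc2 separated the groups. Without wild type replicates 1 and 3, 1 gene of the complex was called lower.

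Of the 17 genes of complex V, 7 were lower, 1 was higher and 9 were not called, with a median log2 fold change of -0.09. The share called lower was 41.2%, beside 32.1% of all tested genes, and the share called higher was 5.88%, beside 31.3%. Of the 17 log2 fold changes, 16 were below 0. In 9 genes (52.9%, beside 29.9% of all tested genes) all EoE33 libraries lay below all wild type libraries. Atp5a1 and Atp5b, the alpha and beta subunits of the catalytic head, were the most abundant nuclear-encoded members per length, at 308 and 299 CPM per kb in wild type. Atp5a1 stood at 984, 977, 963 and 936 CPM in wild type and 841, 818, 850.0 and 818 CPM in EoE33, without overlap, and was called lower by a small amount (log2 fold change -0.21 with an SE of 0.06 and adjusted p in edgeR = 0.0141). Atp5b had a log2 fold change of -0.09 and was not called. The call of Atp5a1 was lost without wild type replicate 2, without wild type replicates 1 and 3, with the replicate number as a block and with no filter on low counts.

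Atp5c1, the gamma subunit that turns inside the head, stood at 244, 239.8, 234 and 237 CPM in wild type and at 180.4, 187, 180.1 and 182 CPM in EoE33 (log2 fold change -0.39 with an SE of 0.05 and adjusted p in edgeR = 0.000183). Atp5s, the coupling factor B, was scarce and had the largest change of the complex, at 7.40 to 8.07 CPM in wild type and 4.27 to 5.29 CPM in EoE33 (log2 fold change -0.70 with an SE of 0.11 and adjusted p in edgeR = 0.000508). Atp5g1, Atp5g2 and Atp5g3 encode the same protein of the membrane ring, and they did not move together. Atp5g1 was 101 to 115 CPM in wild type and 80.0 to 88.8 CPM in EoE33 (log2 fold change -0.39 and adjusted p in edgeR = 0.00057). Atp5g2 had a log2 fold change of -0.04 and was not called (adjusted p in edgeR = 0.625). Atp5g3 stood at 207, 205, 201 and 209 CPM in wild type and 240.3, 229, 242 and 222 CPM in EoE33, above wild type in every library (log2 fold change 0.18 with an SE of 0.06 and adjusted p in edgeR = 0.0173). Per length, Atp5g3 was the most abundant of these genes in both groups, at 94.1 and 107 CPM per kb. Its call was kept without each single library and lost with library size only as scaling, with the replicate number as a block and without wild type replicates 1 and 3. Of the 7 genes called lower in complex V, 3 were called without wild type replicate 2.

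The mitochondrial genome encodes core subunits of complexes I, III, IV and V. Counts in its 13 protein genes took 3.07%, 2.91%, 2.80% and 3.22% of the wild type libraries and 2.16%, 1.64%, 1.85% and 1.92% of the EoE33 libraries, which gives means of 3.0% (SD 0.18) and 1.89% (SD 0.22). The nuclear-encoded members took 1.09% (SD 0.03) of wild type counts and 0.955% (SD 0.028) of EoE33 counts. Mitochondrial counts per nuclear member count were 2.76 ± 0.11 in wild type and 1.98 ± 0.20 in EoE33. Neither share overlapped between groups, and no test was made of these sums over the members. RNA was selected by its poly(A) tail, so these shares describe tailed transcripts.

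The 7 genes mt-Co1, mt-Cytb, mt-Nd1, mt-Nd2, mt-Nd4, mt-Nd5 and mt-Nd6 held 99.9% of the mitochondrial counts. All 7 were called lower without overlap between groups, with log2 fold changes from -0.57 to -0.99. Of all 13 genes, 8 were called lower (61.5%, beside 32.1% of all tested genes). mt-Co1, the catalytic subunit of complex IV, stood at 12783, 12216, 12035 and 12760 CPM in wild type and at 9076, 7716, 7820 and 8831 CPM in EoE33. Every EoE33 library was lower, and the log2 fold change was -0.57 with an SE of 0.09 (adjusted p in edgeR = 0.000513). Of the 150-base windows of mt-Co1, 23.6% were shared with the annotated gene Gm29216. mt-Nd2 (ENSMUSG00000064345, positions 3914 to 4951 of the mitochondrial genome), a membrane subunit of complex I, had the largest change. Its level was 2525, 2470, 2485 and 2533 CPM in wild type and 1538, 1011, 1189 and 1309 CPM in EoE33. Wild type libraries were close together and EoE33 libraries more spread, with replicate 2 lowest and replicate 1 highest (log2 fold change -0.99 with an SE of 0.12 and adjusted p in edgeR = 0.000111).

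mt-Cytb, the cytochrome b of complex III, was 5438 to 5993 CPM in wild type and 3229 to 4191 CPM in EoE33, with a log2 fold change of -0.67 (adjusted p in edgeR = 0.000369). mt-Nd4 had one of -0.81, with 59.2% of its 150-base windows shared with the annotated gene Gm28439. mt-Nd1, mt-Nd5 and mt-Nd6 had log2 fold changes of -0.59, -0.60 and -0.58 (adjusted p in edgeR = 0.00147, 0.000898 and 0.0014). mt-Nd6 lies on the opposite strand and overlaps mt-Nd5 by 14 bases, and it is not given whether counting used strand. Counts of mt-Nd6 may therefore include reads of mt-Nd5 transcripts. In all 7 genes EoE33 replicate 1 was the highest and replicate 2 the lowest library of its group.

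The other 6 mitochondrial genes were counted at levels far under those 7. mt-Co2, mt-Co3, mt-Atp6, mt-Nd3 and mt-Nd4l share over 90% of their 150-base windows with other annotated genes, such as Gm28437 and Gm10925, and their values are uncertain. mt-Co2, which receives electrons from cytochrome c, stood at 3.07 to 4.15 CPM in wild type and 2.34 to 3.64 CPM in EoE33. For mt-Co3, mt-Atp6 and mt-Nd3 the wild type levels were 3.90 to 5.34, 3.25 to 4.88 and 7.15 to 9.11 CPM. Their log2 fold changes were -0.38, -0.40 and -0.55, that of mt-Co2 was -0.23, and none passed the threshold (adjusted p in edgeR = 0.111, 0.194, 0.0572 and 0.298). mt-Nd4l was called lower on 186 and 94 counts in all (log2 fold change -0.77 and adjusted p in edgeR = 0.0458), with overlapping groups, and the call was lost without most single libraries. mt-Atp8, which lies between mt-Co2 and mt-Atp6 and overlaps mt-Atp6 by 43 bases, stood at 1.10 to 1.74 CPM in wild type and 0.526 to 1.20 CPM in EoE33 (log2 fold change -0.69 and adjusted p in edgeR = 0.0672). It shares no window with annotated transcripts of other genes, but sequence outside annotated transcripts was not searched, so its value is uncertain too.

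**Figure D3:**
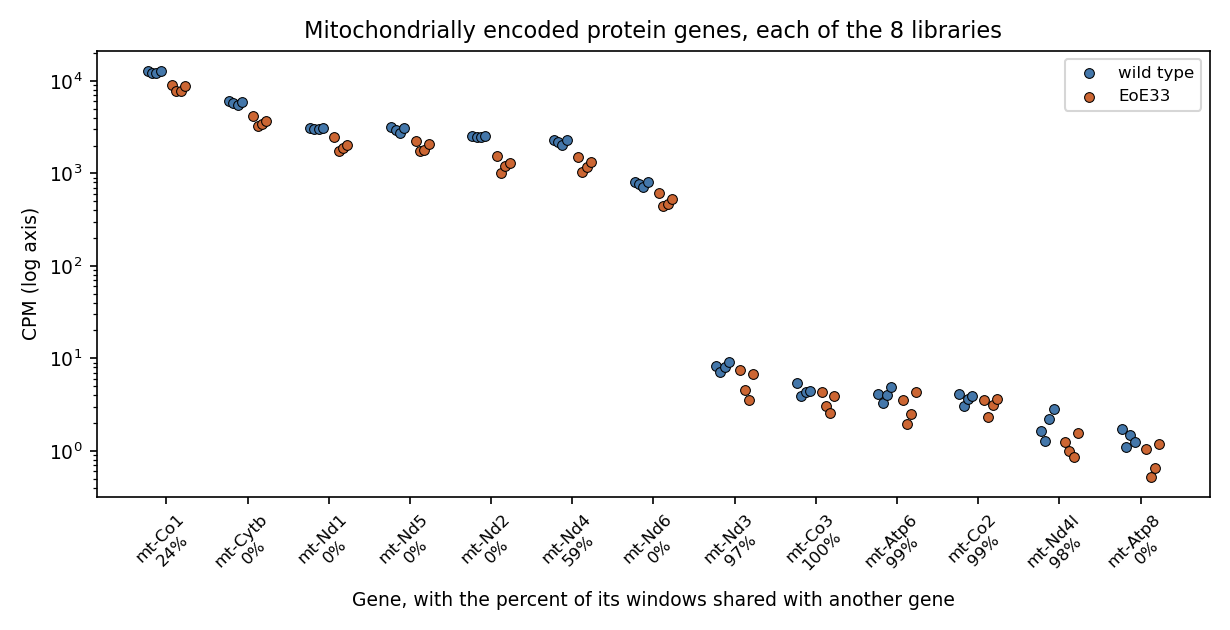
CPM on a log axis (y) of the 13 mitochondrially encoded protein genes (x) in each of the 4 wild type and 4 EoE33 libraries, with the percent of each gene's 150-base windows that is shared with another annotated gene under its name. In the 7 most counted genes every EoE33 point lies under every wild type point, and in the 6 others, all under 10 CPM, the groups overlap.

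Genes of the pathways that feed the chain were mostly lower too, beside 32.1% lower and 31.3% higher among all tested genes. Of 13 tricarboxylic acid cycle genes, 12 were lower and none higher, with a median log2 fold change of -0.45. Fumarase, Fh1, had a log2 fold change of -0.65 and Sucla2, of succinyl-CoA synthetase, one of -0.85 (adjusted p in edgeR = 8.01e-06 and 2.9e-05). Of 15 fatty acid oxidation genes, 14 were lower with a median of -0.72, among them the carnitine carrier Slc25a20 at -0.97 and the dehydrogenase Hadh at -1.42 (adjusted p in edgeR = 7.09e-06 and 2.11e-05). Of 12 genes of pyruvate entry and oxidation, 10 were lower and 1 higher, with a median of -0.54. The pyruvate carrier Mpc1 was at -0.78 and the dehydrogenase component Pdhx at -0.59 (adjusted p in edgeR = 9.19e-06 and 4.76e-05), and the gene called higher was the phosphatase Pdp2 at 0.59. The 10 lower genes also include Pdk2 at -1.72, Pdk3 at -0.29 and Pdk4 at -2.18, kinases that switch pyruvate dehydrogenase off. These lists and those that follow were chosen with earlier results of these data known, and the summed level of skeletal muscle markers given above fell alongside them.

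A list of electron carriers, ubiquinone synthesis enzymes, carriers and creatine kinases of the adenine nucleotide exchange and the outer membrane porins also held isoforms that moved apart. Of 18 tested, 13 were lower, 3 higher and 2 not called, beside 32.1% lower and 31.3% higher among all tested genes. The median of the list was -0.51. Of those 13, 8 make ubiquinone (Coq2 to Coq7, Coq9 and Pdss2) and 2 are porins (Vdac1 and Vdac3). The adenine nucleotide carrier of muscle and heart, Slc25a4, stood at 877, 873, 785 and 838 CPM in wild type and 337, 243, 286 and 330 CPM in EoE33 (log2 fold change -1.50 with an SE of 0.11 and adjusted p in edgeR = 5.34e-06). Its widely expressed counterpart Slc25a5 stood at 214, 221, 239 and 188 CPM in wild type and 411, 395, 406 and 377 CPM in EoE33 (log2 fold change 0.88 with an SE of 0.08 and adjusted p in edgeR = 1.89e-05). Neither overlapped between groups, and they moved in opposite directions. The mitochondrial creatine kinases did likewise: Ckmt2, of striated muscle, had a log2 fold change of -2.05 and the widely expressed Ckmt1 one of 1.64 (adjusted p in edgeR = 0.000419 and 3.05e-06). The third gene called higher was Pdss1, of ubiquinone synthesis, at 0.44.

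A list of assembly factors outside the Nduf symbols also holds the ATP synthase inhibitor Atpif1. Of its 35 tested genes, 20 were lower, 5 higher and 10 not called, with a median log2 fold change of -0.34. For this list and the next, the shares over all tested genes were 32.1% lower and 31.3% higher. Acad9, of the complex I assembly complex that holds Ndufaf1, had a log2 fold change of -1.44 and Sdhaf4, an assembly factor of Sdha, one of -0.99 (adjusted p in edgeR = 8.58e-06 and 1.7e-05). Those called higher were the assembly factors Foxred1, Uqcc2, Sco1 and Coa3 and the inhibitor Atpif1, at 0.19 to 0.45. Of 15 genes of mitochondrial DNA transcription and upkeep, 7 were lower, none higher and 8 not called, with a median of -0.17. The helicase Twnk had a log2 fold change of -0.56 and Mterf3 one of -0.39 (adjusted p in edgeR = 0.000142 and 0.00147), while the packaging factor Tfam, at -0.13, was not called.

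Of 13 regulators of mitochondrial biogenesis, 5 were lower and 5 higher, near the 32.1% and 31.3% of all tested genes, with a median log2 fold change of 0.08. The lower ones were the coactivator Ppargc1a at -1.48, the estrogen-related receptors Esrrb at -1.43 and Esrrg at -2.07, the fatty acid receptor Ppara at -2.73, and Perm1, a muscle regulator, at -2.28. The higher ones changed less: Nrf1 at 0.56, Ppard at 0.55, Esrra at 0.24, the NRF-2 subunit Gabpb1 at 0.21 and Yy1 at 0.18. Nrf1 encodes the factor that binds the NRF-1 site. Its level was 21.6 CPM on average in wild type and 31.8 CPM in EoE33 (adjusted p in edgeR = 0.000164). The part of any regulator in the change of the members was not tested.

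**Figure D4:**
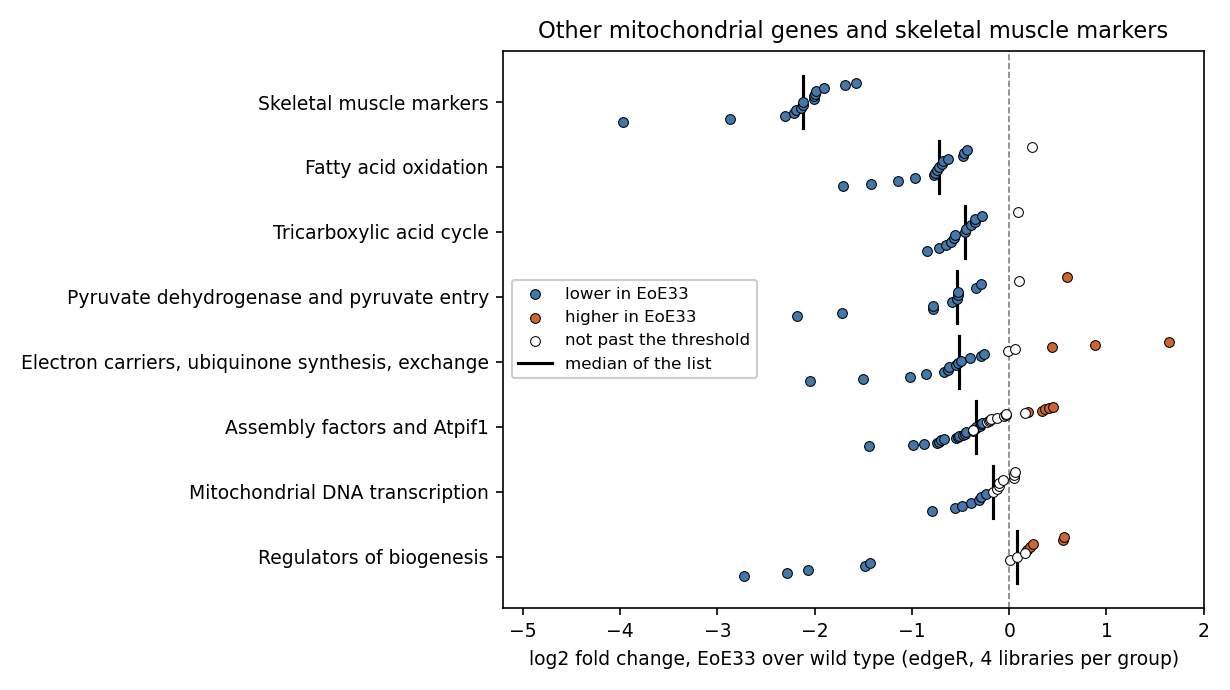
Log2 fold change in EoE33 over wild type (x axis, 4 libraries per group) of genes in 8 lists (rows), each point 1 tested gene and each black bar the median of its list. The skeletal muscle markers sit between -3.97 and -1.58, and the lists of mitochondrial genes lie nearer 0, with medians from -0.72 for fatty acid oxidation to 0.08 for regulators of biogenesis.

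Markers of other tissue moved as well, where 32.1% of all tested genes were called lower and 31.3% higher. The 15 skeletal muscle markers fell, among them the troponins Tnni2 at -2.01 and Tnnt3 at -1.90 (adjusted p in edgeR = 8.68e-07 and 9.81e-07), and 0 of them had a library without counts. Of 6 smooth muscle markers 3 were lower, Myh11, Acta2 and Tagln, and their summed level of 1040 to 3960 CPM in wild type overlapped that of 1159 to 1353 CPM in EoE33. Of 5 tested heart markers 3 were lower, with Tnnt2 at -1.43 and Ryr2 at -1.24, and their summed level was 49.5 to 290 CPM in wild type and 23.6 to 26.6 CPM in EoE33. The third call, Myh6, rests on wild type replicate 3: the other wild type libraries held 0.395 to 0.471 CPM and the EoE33 libraries 0.117 to 0.56 CPM. All 4 white fat markers were lower, with Lep at -2.08 and Plin1 at -2.41, and the summed level was 156 to 979.5 CPM against 84.2 to 271 CPM. Of 3 tested brown fat markers only Ppargc1a was called, at -1.48, and it also stands in the list of biogenesis regulators. Cidea, at -0.98, and Ucp1, which went the other way at 1.4, were not called. The summed level of the brown fat markers was 31.1 to 43.1 CPM against 5.73 to 55.7 CPM, with Ucp1 at 0 counts in EoE33 replicate 2. The tested airway markers Cyp2f2 and Scgb1a1, 2 of 5, were lower, with a summed level of 373 to 1220.0 CPM against 54.5 to 131 CPM. This sum mainly follows Cyp2f2, at 367 to 783 CPM in wild type and 53.9 to 130 CPM in EoE33. Scgb1a1 was only 5.43 to 5.89 CPM in the wild type libraries other than replicate 3, so the sum does not follow both markers alike. The tested liver markers Alb and Apoa1, 2 of 4, were lower, with a summed level of 4.15 to 132 CPM against 0.409 to 3.45 CPM. The 3 thyroid markers had too few counts to be tested.

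Of 5 squamous epithelium markers 3 were higher and 2 lower, where 31.3% and 32.1% of all tested genes were. The basal keratins Krt14 and Krt5 had log2 fold changes of 4.06 and 1.97 (adjusted p in edgeR = 6.07e-07 and 5.85e-06), and Krt4 and Krt13 of the upper layers ones of -2.25 and -0.96, and the summed level was 51501 to 90642 CPM in wild type and 31667 to 48170 CPM in EoE33. Of 5 leukocyte markers 3 were higher, among them Siglecf of eosinophils at 4.18 and the pan-leukocyte gene Ptprc at 1.37 (adjusted p in edgeR = 2.76e-05 and 0.00284), and their summed level was 23.2 to 56.6 CPM against 81.0 to 109 CPM. The part of each of these tissues in the levels of the oxidative phosphorylation genes was not tested.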

How the data were processed

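PolyA RNA of mouse esophagus was sequenced in 8 libraries, 4 per group. The authors deposited raw counts per Ensembl gene, with no normalization. The submitters' processing notes name Trimmomatic 0.36, STAR 2.5.2b, featureCounts, Subread 1.5.2 and GRCm38, without roles. Annotation release, strand and treatment of multiply matching reads are not stated in these sources, so values of overlapping genes and of genes with near-identical copies are uncertain. Columns were assigned to samples by the spreadsheet letter in each sample's description. Of 49315 identifiers, 49056 matched GENCODE M21, which gave symbols, coordinates and exon lengths. The 37 other matches to the rule that do not encode protein were left out.

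Genes were filtered with filterByExpr by group, which left 16760, scaled by TMM and tested with edgeR 4.0.16 in R 4.3.3 (glmQLFit with robust = TRUE, glmQLFTest, genotype as the only term), with Benjamini-Hochberg adjusted p under 0.05 over all tested genes. The procedure was tested on simulated data. CPM used TMM-scaled library sizes, and CPM per kb the union of exons. That union can be much longer than the longest transcript, as in Atp5b (4237 against 1916 bases). Ranks and shares per length depend on this choice. Log2 ratios within libraries used a prior of 2 counts and two-sided exact permutation tests, adjusted over 9 ratios. The median SE of a member's log2 fold change was 0.07, and the depth floor of 3 counts covers counting error only. The labels do not say whether samples of a group are separate animals.

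Members and lists were chosen with earlier results of these data known. Named genes were the mitochondrial genes, complex II, isoform pairs, up to 3 genes in each direction with the largest non-overlapping change and the most abundant gene of each other complex, and the 2 smallest p-values of each list. Other genes named were chosen after their values were seen. Windows of 150 bases shared between transcripts were counted in GENCODE M21. Alternatives were DESeq2 1.42.0 and its size factors, limma-voom (limma 3.58.1), other scalings, filters and thresholds, the replicate number as a block, and leaving out libraries.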

Additional observations from a re-analysis of the deposited data

Results flagged for a closer look

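In 3 of 96 groups of 4 libraries examined, 1 library stood apart from the other 3 of its group by more than the 95% limit of Dixon's test, and chance alone passes this limit in about 1 in 20 groups. Cox6a2 was 36.2 CPM in EoE33 replicate 4, against 26.24 to 27.89 CPM in the other EoE33 libraries, and without it the log2 fold change was -1.96. Cox6b1 was 126.9 CPM in wild type replicate 4, against 131.6 to 131.9 CPM in the other wild type libraries. Cox7a2 was 81.3 CPM in EoE33 replicate 2, against 71.14 to 72.75 CPM in the other EoE33 libraries, and its log2 fold change without that library was -0.04.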

How the results depend on the processing

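Across 20 alternatives no called member changed direction, and 55 of 65 called members kept their call without each single library. Members called lower numbered 47 to 63 and those called higher 3 to 6. Of 906 values of 46 named members, 844 kept their direction and side of the threshold, 38 lost it, 14 gained it and 10 changed sign, none of these 10 in a called gene. No scaling moved the median of all genes by more than 0.02. Members called higher fell to 3, those of complex II to 0 and those of complex V to 0, with library size only, with the replicate block, at adjusted p under 0.01 and without wild type replicates 1 and 3. Complex V genes called lower were 3 without a low-count filter, at adjusted p under 0.01 and without wild type replicates 1 and 3, which also left 1 gene called lower in complex III and 1 among widely expressed complex IV genes. Leaving out single libraries gave 0 to 1 genes higher in complex II, 0 to 1 in tissue-restricted complex IV and 3 to 7 lower in complex V. The cause was not tested. Cox7a2 changed sign at -0.01 with library size only and ran from -0.04 to 0.05 without single libraries. Ndufaf8 was 0.00 without the filter, 0.09 without wild type replicates 1 and 3 and -0.12 to 0.03 without single libraries. The ratio of Cox7a1 to muscle markers ran from -0.17 to 0.10 without single libraries. Without the most abundant gene of each library, nuclear-encoded members took 1.13% of counts in wild type and 1.04% in EoE33.

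Replicate numbers did not pair the samples: correlations of same-numbered deviations were 0.104, -0.122, 0.056 and -0.136, and none was the highest for its library. With the replicate number as a block, 57 members were lower and 3 higher, beside 5120 and 4936 of all genes. Depth limits the 14 tested members under 10 CPM most.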
